A study of Mus musculus with 30 samples.

Results

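The genes described here encode enzymes that modify collagen after its chains are made. They are Lox, Loxl1, Loxl2, Loxl3 and Loxl4 (lysyl oxidases), Plod1, Plod2 and Plod3 (lysyl hydroxylases), and P4ha1 and P4ha3 (alpha subunits of prolyl 4-hydroxylase). They were taken by gene symbol, and all 10 were found among the 55487 genes of the count table. Poly(A) RNA was counted in 30 mouse hearts taken 8 weeks after surgery, in 8 groups. Transverse aortic constriction (TAC) places a clip on the aortic arch, which raises the load on the left ventricle, and sham operated mice had no clip.

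In the floxed cohort, mice with a floxed Cpt1a gene had sham surgery (FF_sham) or TAC (FF_TAC), and mice labelled as cardiac-specific Cpt1a knockouts had sham surgery (KO_sham) or TAC (KO_TAC), with 4 hearts in each group. In the AAV9 cohort, C57Bl/6 mice received PBS with sham surgery (PBS_sham) or TAC (PBS_TAC), 3 hearts each, or the AAV9.Cpt1a vector with sham surgery (AAV_sham) or TAC (AAV_TAC), 4 hearts each. Cpt1a encodes the outer-membrane enzyme that commits long-chain fatty acids to oxidation in mitochondria. The series text gives the vector a cTNT promoter, which is active in cardiomyocytes, and frames the study around Cpt1a under pathological stress. The Cre driver, sex and age are not given in the sources used here, nor is which mouse had the 0.016 or the 0.018 inch clip. The KO_TAC titles carry the words TAC and sham together. Genotype, treatment and table column all say knockout with TAC, and the group follows them.

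Collagen is hydroxylated inside the endoplasmic reticulum and crosslinked outside the cell. Prolyl 4-hydroxylase, a tetramer of alpha subunits (P4HA) and the shared beta subunit P4HB, modifies proline residues and so makes the triple helix stable at body temperature. Lysyl hydroxylases modify lysine residues that later carry sugars and take part in crosslinks. Lysyl oxidases are secreted copper enzymes that oxidise lysine in collagen and elastin, from which the crosslinks form. In the heart, fibroblasts are the main source of fibrillar collagen, and a more crosslinked matrix is stiffer.

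Total counts per library ran from 14839758 to 22070373. Summed haemoglobin transcripts were at or under 51.1 CPM (a gene's counts relative to the library total, TMM-scaled except for haemoglobin) in 7 libraries: FF_TAC 2 and 3, KO_sham 2 and all 4 of KO_TAC. Every other library held 294 CPM or more. Cpt1a itself was at 37.8 to 52.7 CPM in FF_sham and 11.1 to 19.6 CPM in KO_TAC. The library labelled KO_sham 2, at 46.3 CPM, lay among the FF_sham values, and the libraries labelled FF_TAC 2 and 3, at 20.3 and 16.2 CPM, lay below every other FF library. Directions that involve KO_sham or FF_TAC therefore rest on these labels. In PBS_sham 3 the summed cardiomyocyte markers were at 21500 CPM, against 47800 and 59400 CPM in the other PBS_sham libraries. Summed activated fibroblast markers were at 1160 CPM in PBS_sham 3, against 208 and 317 CPM in PBS_sham 1 and 2. Summed smooth muscle markers also reached 1090 CPM in the highest PBS_sham library, with a group median of 318 CPM. In the AAV9 cohort Cpt1a was at 37.4 to 68.0 CPM in PBS_sham, 56.3 to 88.4 CPM in AAV_sham, 40.3 to 61.6 CPM in PBS_TAC and 44.8 to 62.7 CPM in AAV_TAC. The vector groups were not called different from the PBS groups, at 0.45 after sham surgery (SE 0.22, edgeR adjusted p 0.248) and 0.05 after TAC (SE 0.21, edgeR adjusted p 1), so the vector comparisons too rest on the labels. Whether transgene reads count towards Cpt1a is not given in the sources used here.

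Per kilobase of exon, which allows genes to be compared, Plod1 and Loxl1 were the most abundant members in the FF_sham heart. Plod1 stood at 14.9 ± 1.61 CPM per kb and Loxl1 at 14.6 ± 1.04 (SD, n = 4), a difference smaller than either SD. P4ha1 followed at 10.6 ± 0.475, Plod3 at 7.88 ± 0.298, Plod2 at 4.97 ± 0.952 and Loxl2 at 3.04 ± 0.358 CPM per kb. Loxl3 was at 1.32 ± 0.146, Lox at 0.547 ± 0.13, Loxl4 at 0.177 ± 0.0908 and P4ha3 at 0.0374 ± 0.00218 CPM per kb. Neighbours in this order from Loxl1 down to Lox were separated by more than their summed SDs. Loxl1, which is known for its role in elastic fibres, made up 74.1% ± 1.97 of the summed lysyl oxidase level per kb in FF_sham. Lox itself made up 2.77% ± 0.54 of it.

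In KO_TAC the order changed. Loxl1 reached 28.2 ± 2.9 CPM per kb and P4ha1 28.0 ± 2.38 (SD, n = 4), above Plod1 at 16.9 ± 1.48. Lox, at 5.57 ± 2.77 CPM per kb, stood above Loxl3, at 3.83 ± 1.33, and within an SD of Plod2, at 6.11 ± 0.46. P4ha3 was the lowest in both groups. It had 154 counts in all 30 libraries together, did not pass the filter on low counts in either cohort, and is described from its counts. The other 9 members were tested in both cohorts.

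**Figure D1:**
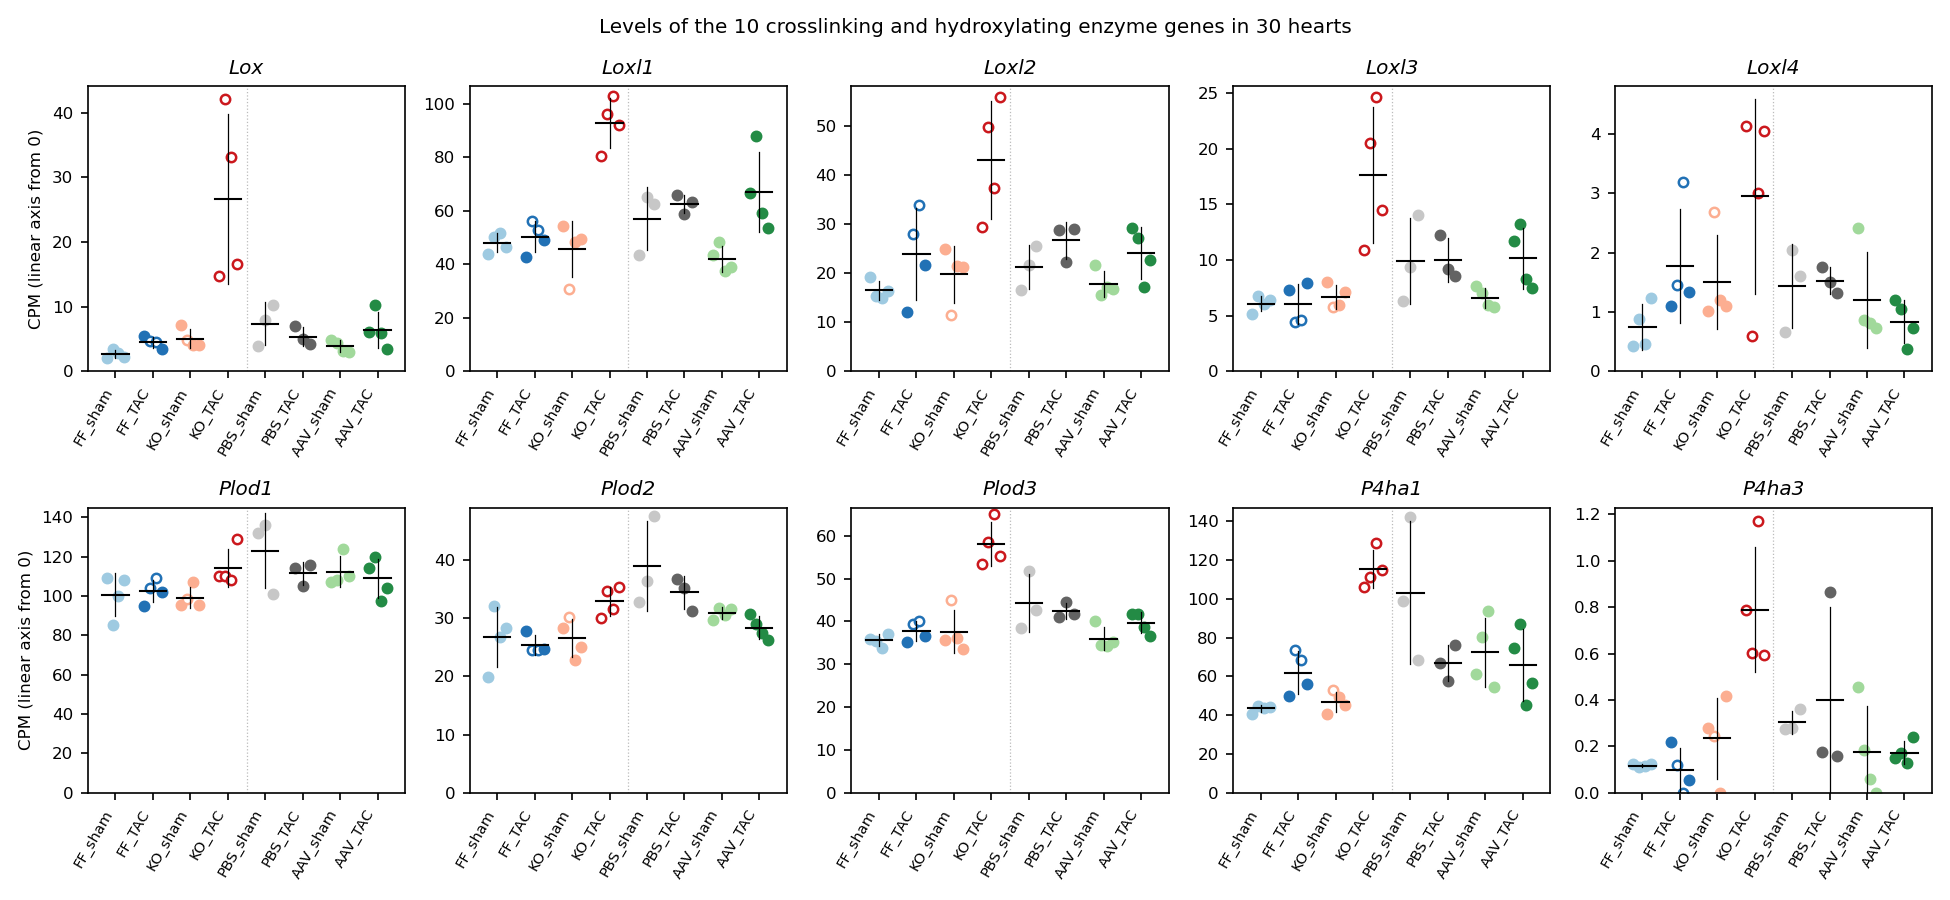
Levels of the 10 genes in each of the 30 hearts, in CPM scaled by TMM within each cohort, on linear axes from 0. Each point is a heart, open points are the 7 libraries with under 100 CPM of haemoglobin transcripts, horizontal lines are group means, vertical lines are SDs, and the dotted line divides the cohorts. The KO_TAC points for Lox lie at 14.7 to 42.1 CPM, above all other hearts.

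The promoters of 3 members are shown because 2 of them belong to genes that rose in KO_TAC and 1 to a gene that did not pass the test. RefSeq held a promoter for 5 of the 10 members (Plod1, Plod3, P4ha1, P4ha3 and Loxl4; assembly GRCm38.p6). The 250 bases before the start are printed 5′ to 3′ on the gene's own strand, for P4ha1 (chr10:59323046-59323295, plus strand), Plod3 (chr5:136986769-136987018, plus strand) and Plod1 (chr4:147936777-147937026, minus strand). Capitals mark ACGTG and GCGTG on either strand, the core letters to which hypoxia-inducible factors are known to bind. P4ha1, Plod1 and Plod2 are textbook hypoxia-responsive genes.
P4ha1: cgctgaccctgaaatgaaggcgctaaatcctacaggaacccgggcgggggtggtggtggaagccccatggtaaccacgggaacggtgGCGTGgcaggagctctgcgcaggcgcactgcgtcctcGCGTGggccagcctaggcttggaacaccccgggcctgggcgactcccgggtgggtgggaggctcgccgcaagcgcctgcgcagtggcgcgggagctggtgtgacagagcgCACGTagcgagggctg
Plod3: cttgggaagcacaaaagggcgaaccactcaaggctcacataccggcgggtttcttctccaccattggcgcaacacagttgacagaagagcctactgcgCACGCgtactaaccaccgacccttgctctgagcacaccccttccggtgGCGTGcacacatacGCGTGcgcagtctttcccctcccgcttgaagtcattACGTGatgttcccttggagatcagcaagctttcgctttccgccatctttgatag
Plod1: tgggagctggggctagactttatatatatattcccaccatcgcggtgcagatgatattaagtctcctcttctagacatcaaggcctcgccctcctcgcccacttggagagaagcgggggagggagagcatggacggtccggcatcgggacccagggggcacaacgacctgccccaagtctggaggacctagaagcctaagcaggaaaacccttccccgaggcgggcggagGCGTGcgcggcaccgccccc

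The P4ha1 window held 1 ACGTG and 2 GCGTG, the Plod3 window 1 ACGTG and 3 GCGTG, and the Plod1 window 0 ACGTG and 1 GCGTG. In the same 250 bases of 32851 RefSeq promoters, 16.6% held ACGTG, 28.2% held GCGTG and 38.6% held either. Loxl4 held 0 ACGTG and 1 GCGTG, and P4ha3 held 0 of each. A match is a description of the letters and shows no binding.

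After TAC, 6 of the 9 tested members rose in knockout hearts, and for each of the 6 every KO_TAC heart was above every KO_sham heart. They were Lox, Loxl1, Loxl2, Loxl3, Plod3 and P4ha1. Of all 15596 genes tested, 25.8% were called in KO_TAC against KO_sham and 14.3% were called higher, by edgeR's quasi-likelihood test at a Benjamini-Hochberg adjusted p under 0.05. All 9 members had a positive log2 fold change, with a median of 1.03, beside a median of 0.02 over all genes tested. Against FF_TAC, 5 of the 9 rose (Lox, Loxl1, Loxl3, Plod3 and P4ha1), where 14.3% of all genes were called and 7.53% were called higher. There the members' median was 0.85, and that of all genes 0.04. The 2 comparisons share the KO_TAC libraries and are given side by side. In whole hearts, a change in the number of cells of a type and a change in RNA per cell cannot be told apart.

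Lox (ENSMUSG00000024529, chromosome 18) encodes the founding lysyl oxidase, which crosslinks both collagen and elastin. Its level was 2.02, 3.38, 2.85 and 2.22 CPM in FF_sham, 5.37, 4.64, 4.54 and 3.37 CPM in FF_TAC, 7.15, 4.80, 4.06 and 4.02 CPM in KO_sham, and 14.7, 42.1, 33.1 and 16.6 CPM in KO_TAC. The lowest KO_TAC heart was above the highest heart of each other floxed group, and the KO_TAC hearts themselves spread widely. Lox rose in KO_TAC against KO_sham by a log2 fold change of 2.40 (SE 0.32, edgeR adjusted p 0.000619), which is 5.28-fold. Against FF_TAC it rose by 2.56 (SE 0.32, edgeR adjusted p 0.000488), which is 5.92-fold. This was the largest fold of any tested member in both comparisons.

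Loxl1 (ENSMUSG00000032334; GRCm38 chr9:58287738-58313186, minus strand) was at 80.5, 96.0, 103 and 91.9 CPM in KO_TAC. It was at 54.3, 30.6, 48.2 and 49.4 CPM in KO_sham and 42.7, 56.3, 52.8 and 49.0 CPM in FF_TAC. No heart of those 2 groups reached the KO_TAC range, and FF_sham, at 43.9 to 51.5 CPM, did not either. Loxl1 rose by 1.03 against KO_sham (SE 0.15, edgeR adjusted p 0.00102) and by 0.89 against FF_TAC (SE 0.15, edgeR adjusted p 0.00197), about a doubling of an already abundant transcript.

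Loxl3 (ENSMUSG00000000693; GRCm38 chr6:83034173-83052562, plus strand) is a lysyl oxidase known for its part in craniofacial and muscle development. KO_TAC hearts held 10.9, 20.5, 24.6 and 14.5 CPM, against 8.02, 5.72, 5.93 and 7.11 CPM in KO_sham and 7.29, 4.4, 4.6 and 7.90 CPM in FF_TAC. The KO_TAC hearts were again all above the others. The rise was 1.39 on the log2 scale against KO_sham (SE 0.25, edgeR adjusted p 0.00244) and 1.54 against FF_TAC (SE 0.25, edgeR adjusted p 0.00167). Loxl3 shares 535 bases of exon with Htra2 on the opposite strand, and the strand setting of the counting is not given in the sources used here, so its counts are uncertain.

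Loxl2 (ENSMUSG00000034205; GRCm38 chr14:69609068-69695834, plus strand), which acts on basement membrane collagen IV, gave a less even picture. Its level was 29.3, 49.8, 37.3 and 55.9 CPM in KO_TAC, 24.9, 11.4, 21.5 and 21.2 CPM in KO_sham, and 12.1, 28.0, 33.9 and 21.7 CPM in FF_TAC. KO_TAC lay above KO_sham without overlap, but FF_TAC 3 lay inside the KO_TAC range. Loxl2 rose by 1.12 against KO_sham (SE 0.29, edgeR adjusted p 0.0136), and the value of 0.85 against FF_TAC missed the threshold (SE 0.29, edgeR adjusted p 0.0594). The second value was called without FF_TAC 3 (1.06, adjusted p 0.0316) and without KO_TAC 1 (0.99, adjusted p 0.0253). Loxl2 shares 301 bases of exon with an antisense gene, Gm27177, so its counts are uncertain in the same way.

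Loxl4 was scarce, and its values could not separate the groups. It was at 4.14, 0.601, 3.0 and 4.05 CPM in KO_TAC, from 84, 8, 54 and 68 counts, so KO_TAC 2 stood below every KO_sham heart (1.01 to 2.68 CPM). The log2 fold change was 1.0 against KO_sham (SE 0.52, edgeR adjusted p 0.161) and 0.75 against FF_TAC (SE 0.52, edgeR adjusted p 0.336).

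Of the 3 lysyl hydroxylases, edgeR called Plod3. Plod3 (ENSMUSG00000004846; GRCm38 chr5:136987019-136996648, plus strand) encodes LH3, which also adds the sugars to hydroxylysine. It was at 53.4, 58.5, 65.0 and 55.4 CPM in KO_TAC, 35.6, 45.1, 36.2 and 33.6 CPM in KO_sham, and 35.2, 39.4, 40.2 and 36.5 CPM in FF_TAC. All KO_TAC hearts were above all hearts of the other floxed groups, which lay at 33.6 to 45.1 CPM. Plod3 rose by 0.63 against KO_sham (SE 0.10, edgeR adjusted p 0.00136) and by 0.62 against FF_TAC (SE 0.10, edgeR adjusted p 0.00158), about 1.54-fold and 1.53-fold. Plod3 shares 529 bases of exon with Znhit1 on the opposite strand, so its counts are uncertain.

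Plod1 and Plod2 moved less. Plod1 encodes LH1, the main enzyme for lysines in the helix, and was at 110, 110, 108 and 129 CPM in KO_TAC against 95.6 to 107 CPM in KO_sham and 95 to 109 CPM in FF_TAC. Its log2 fold change was 0.20 against KO_sham (SE 0.10, edgeR adjusted p 0.132) and 0.15 against FF_TAC (SE 0.10, edgeR adjusted p 0.29). Plod2 encodes LH2, which acts on the lysines of the collagen telopeptides and so sets the type of crosslink. It was at 30.1, 34.7, 31.6 and 35.4 CPM in KO_TAC, 28.3, 30.2, 22.8 and 25.1 CPM in KO_sham, and 27.9, 24.5, 24.5 and 24.7 CPM in FF_TAC. Its values were 0.31 (SE 0.13, edgeR adjusted p 0.0874) and 0.38 (SE 0.13, edgeR adjusted p 0.0649), the second called without KO_TAC 1 (adjusted p 0.0462). Plod2 shares 346 bases of exon with Gm38391 on the opposite strand, so its counts are uncertain.

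P4ha1 (ENSMUSG00000019916; GRCm38 chr10:59323296-59373304, plus strand), the catalytic alpha subunit of the main prolyl 4-hydroxylase, had the smallest p of the members against KO_sham. It was at 40.6, 44.9, 43.8 and 44.4 CPM in FF_sham, 49.6, 73.6, 68.3 and 55.8 CPM in FF_TAC, 40.6, 52.7, 49.1 and 45.1 CPM in KO_sham, and 106, 111, 129 and 115 CPM in KO_TAC. The KO_TAC hearts clustered tightly and lay far above the rest of the cohort, and FF_TAC lay above FF_sham. P4ha1 rose by 1.30 against KO_sham (SE 0.12, edgeR adjusted p 0.00032), which is 2.46-fold. It rose by 0.90 against FF_TAC (SE 0.12, edgeR adjusted p 0.000722), which is 1.87-fold.

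P4ha3, another alpha subunit, was near the limit of detection. KO_TAC hearts had 16, 8, 21 and 10 counts, KO_sham hearts 6, 4, 0 and 8, FF_TAC hearts 4, 2, 0 and 1, and FF_sham hearts 2 each. A count of 0 allows up to 3 counts. The KO_TAC hearts did not overlap with either group on the CPM scale, although KO_TAC 2 and KO_sham 4 both had 8 counts. DESeq2, which applied its own filter, called P4ha3 against KO_sham (1.76, adjusted p 0.0354) and against FF_TAC (2.98, adjusted p 0.0025). edgeR without the filter gave 1.70 (adjusted p 0.102) and 2.88 (adjusted p 0.0207). In smaller sets of libraries P4ha3 passed the filter through its KO_TAC counts. There edgeR's value against FF_TAC was 2.46 (adjusted p 0.0521) with FF_TAC 2 and 3 and KO_sham 2 left out. Among the haemoglobin-low libraries alone it was 3.53 (adjusted p 0.27).

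**Figure D2:**
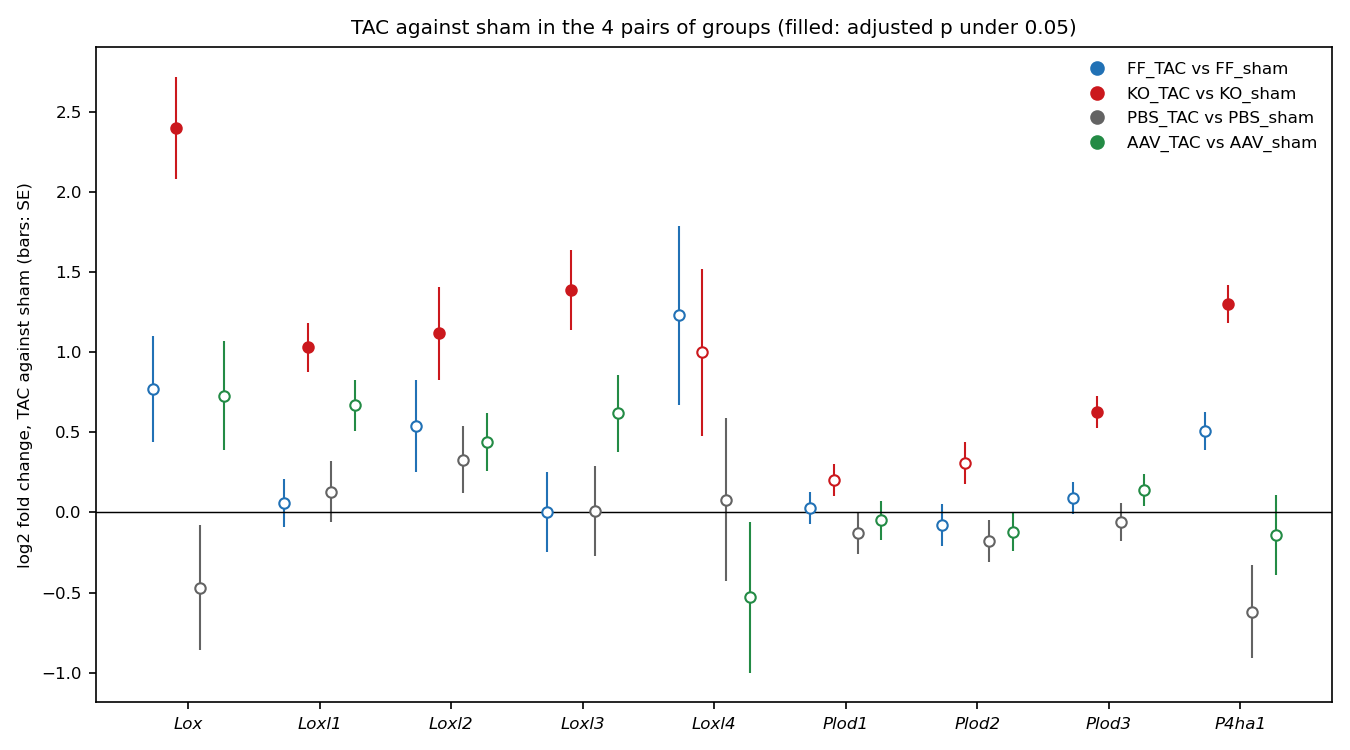
Log2 fold change of TAC against sham for the 9 tested members in the 4 pairs of groups, with SE bars. Filled points passed an edgeR adjusted p under 0.05. The 6 filled points all belong to KO_TAC against KO_sham, and the Lox value of 2.40 is the highest.

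Without overlap of libraries, 7 of the 9 tested members were higher in KO_TAC than in KO_sham, where 11.1% of all genes tested were, and 6 were higher than in FF_TAC, where 6.76% were. Plod1 is the member that did not overlap in the first but was not called, and Plod2 is that member in the second. When each library was left out in turn, the 6 against KO_sham and the 5 against FF_TAC each remained in all 8 fits.

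The haemoglobin split coincides with KO_TAC, so the calls were examined with it in view. With a term for the split, which FF_TAC and KO_sham set because they hold libraries of both kinds, 5 of the 6 calls against KO_sham and all 5 against FF_TAC remained. The call that went was Loxl2 (0.97, adjusted p 0.22). Over all 15596 genes, the term lowered the calls from 4031 to 273 against KO_sham and from 2235 to 1127 against FF_TAC. With FF_TAC 2 and 3 and KO_sham 2 left out, Lox was 2.58 and P4ha1 1.12 against FF_TAC, and 6 members were called, Loxl2 (1.33, adjusted p 0.00469) being added, among 3663 of 16319 genes. That fit cannot separate the split from KO_TAC, because the haemoglobin-low libraries left in it are those of KO_TAC alone. Among the haemoglobin-low libraries alone, 4 KO_TAC against 2 FF_TAC, no member was called, nor was any of the 15311 genes tested. The values there were 2.50 for Lox (adjusted p 0.205), 1.94 for Loxl3 (0.19), 0.74 for Loxl1 (0.229), 0.67 for P4ha1 (0.255) and 0.52 for Plod3 (0.317).

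**Figure D3:**
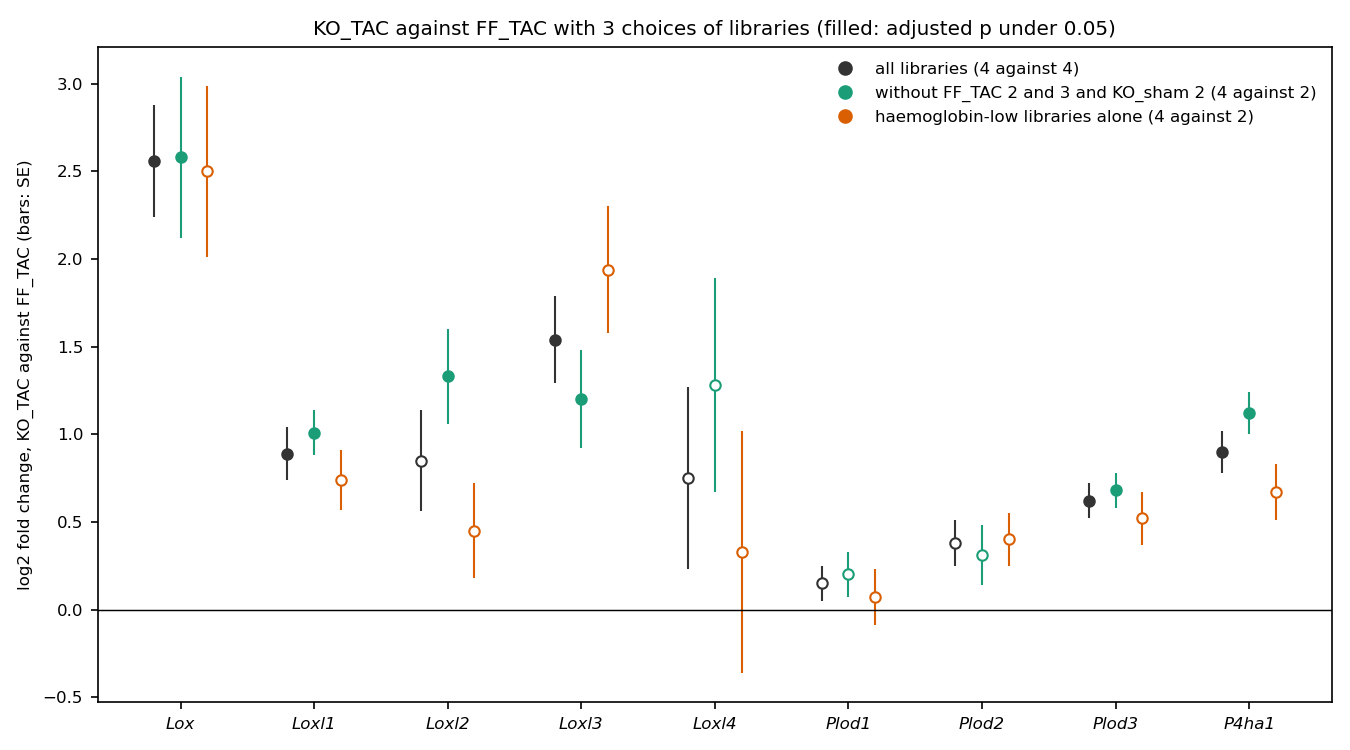
Log2 fold change of KO_TAC against FF_TAC for the 9 tested members with 3 choices of libraries, with SE bars, filled where the edgeR adjusted p was under 0.05. The Lox value is 2.56 with all libraries, 2.58 without FF_TAC 2 and 3 and KO_sham 2, and 2.50 among the haemoglobin-low libraries alone, where no point is filled.

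Within groups, the haemoglobin-low hearts did not move all members the same way. FF_TAC 2 and 3 were higher than FF_TAC 1 and 4 in P4ha1 (68.3 and 73.6 against 49.6 and 55.8 CPM) and lower in Loxl3 (4.4 and 4.6 against 7.29 and 7.90 CPM). KO_sham 2 was higher than the other KO_sham hearts in Plod3 (45.1 against 33.6 to 36.2 CPM) and lower in Loxl1 (30.6 against 48.2 to 54.3 CPM). Summed early response genes followed the same split. They were at 1980 to 5560 CPM in KO_TAC, 3720 and 4940 CPM in FF_TAC 2 and 3, and 4210 CPM in KO_sham 2, against 188 to 282 CPM in the other 9 floxed libraries. The part of this split in the results was not tested beyond the fits above.

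Whether the knockout changed the response to TAC was asked of the interaction. No member was called by edgeR, where 0.0449% of all genes tested were. At an unadjusted p under 0.05 there were 5 members and 2049 of 15596 genes. The values for Loxl1 (0.96, SE 0.21, edgeR adjusted p 0.0912) and P4ha1 (0.79, SE 0.17, edgeR adjusted p 0.0912) came nearest. Loxl3 gave 1.39 (SE 0.35, edgeR adjusted p 0.118), Plod3 0.54 (SE 0.14, edgeR adjusted p 0.126), Lox 1.63 (SE 0.45, edgeR adjusted p 0.151) and Loxl2 0.58 (SE 0.41, edgeR adjusted p 0.55). DESeq2 called 5 of these (not Loxl2), with adjusted p from 0.00344 for P4ha1 to 0.0308 for Lox, among 364 genes in all, where edgeR called 7. Without KO_TAC 1, edgeR called 4 (Lox 1.82, Loxl1 1.02, Loxl3 1.55 and P4ha1 0.82), among 215 of 15802 genes called in that fit. Summed atrial markers in KO_TAC 1 were at 8480 CPM, against at most 6.76 CPM in the other KO_TAC hearts. With a log2 Myl7 covariate for atrial tissue, edgeR called no member in the interaction, among 25 genes called in that fit. Its values were 1.0 for Loxl1 (adjusted p 0.0536), 0.80 for P4ha1 (0.0673), 1.39 for Loxl3 (0.0872) and 1.64 for Lox (0.11). The part of atrial tissue in the result was not tested beyond that fit.

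In floxed controls no member passed the test after TAC. None of the 9 was called by edgeR in FF_TAC against FF_sham, and 0.0% of all genes were. At an unadjusted p under 0.05 there were 3 members and 1733 genes, and DESeq2 called 1 member, among 166 genes in all. That member was P4ha1, at 0.51 in edgeR (SE 0.12, adjusted p 0.328) and 0.52 in DESeq2 (adjusted p 0.0159). P4ha1 was also the member that was higher in every FF_TAC heart than in every FF_sham heart, as 2.74% of genes were. Lox gave 0.77 (SE 0.33, edgeR adjusted p 0.422), Loxl4 1.23 (SE 0.56, edgeR adjusted p 0.442) and Loxl2 0.54 (SE 0.29, edgeR adjusted p 0.493).

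The knockout without TAC also called no member. In KO_sham against FF_sham edgeR called 0.0% of genes, and 1 member and 814 genes had an unadjusted p under 0.05. The member was Lox, at 0.93 (SE 0.33, edgeR adjusted p 0.9), with all 4 KO_sham hearts above all 4 FF_sham hearts, as in 3.23% of genes. DESeq2 called 0 members, but it gave no adjusted p for Lox, Loxl2, Loxl3, Loxl4, Plod2, Plod3 or P4ha3. The members' log2 fold changes ran from −0.07 to 0.99.

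In the AAV9 cohort edgeR called no member in any of the 5 comparisons. TAC against sham in PBS mice called 0.0318% of genes, and the members' values ran from −0.62 to 0.33. P4ha1 was at 98.9, 142 and 68.6 CPM in PBS_sham and 66.7, 57.8 and 76.3 CPM in PBS_TAC. The groups overlapped through PBS_sham 3, and the value was −0.62 (SE 0.29, edgeR adjusted p 0.266). Lox, at 3.84, 7.92 and 10.3 CPM in PBS_sham and 6.91, 4.96 and 4.18 CPM in PBS_TAC, gave −0.47 (SE 0.39, edgeR adjusted p 0.49). P4ha1 was the 1 member with an unadjusted p under 0.05, as 2908 of 15745 genes had, and DESeq2 called 0 members.

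In vector-treated mice edgeR called no member after TAC, and 5 of the 9 had a positive value. In AAV_TAC against AAV_sham 0.00635% of genes were called. The values ran from −0.53 for Loxl4, at 0.379 to 1.2 CPM in AAV_TAC and 0.727 to 2.42 CPM in AAV_sham, to 0.73 for Lox. Loxl1 was at 66.8, 87.9, 59.2 and 53.7 CPM in AAV_TAC and 43.4, 48.3, 37.5 and 38.9 CPM in AAV_sham, without overlap, as in 4.9% of genes. It gave 0.67 (SE 0.16, edgeR adjusted p 0.239), and DESeq2 called it (adjusted p 0.0286), among 96 genes in all. Lox gave 0.73 (SE 0.34, edgeR adjusted p 0.713), Loxl3 0.62 (SE 0.24, edgeR adjusted p 0.595) and Loxl2 0.44 (SE 0.18, edgeR adjusted p 0.626). Unadjusted, 3 members and 1110 of 15745 genes had p under 0.05.

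The vector in sham operated hearts went with lower values of all 9 tested members, none called. In AAV_sham against PBS_sham 0.0127% of genes were called, and DESeq2 called 0 members. At an unadjusted p under 0.05 there were 5 members and 3262 of 15745 genes. Lox gave −0.94 (SE 0.36, edgeR adjusted p 0.193), Loxl3 −0.59 (SE 0.26, edgeR adjusted p 0.228), P4ha1 −0.51 (SE 0.27, edgeR adjusted p 0.279) and Loxl1 −0.44 (SE 0.18, edgeR adjusted p 0.199). Plod2 gave −0.33 (SE 0.12, edgeR adjusted p 0.183) and Plod3 −0.30 (SE 0.11, edgeR adjusted p 0.184). Plod2 was at 32.8, 36.4 and 47.7 CPM in PBS_sham and 29.7, 31.8, 30.5 and 31.7 CPM in AAV_sham, and it alone did not overlap, as 5.32% of genes were lower in this way. The PBS_sham libraries decided these values. Without PBS_sham 1, edgeR called 5 members (Lox −1.23, Loxl3 −0.81, Loxl1 −0.59, Plod2 −0.43 and Plod3 −0.38), among 2821 of 16209 genes called in that fit (1995 of them lower). Without PBS_sham 3, the library low in cardiomyocyte markers, Lox was −0.61, Loxl3 −0.25 and Plod2 −0.16 with 0 called. Not every member shrank. P4ha1 was at 68.6 CPM in PBS_sham 3 and at 98.9 and 142 CPM in PBS_sham 1 and 2. Plod1 was at 101 CPM in PBS_sham 3 and at 132 and 136 CPM in PBS_sham 1 and 2. Leaving out PBS_sham 3 made the values of both more negative.

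After TAC, the vector against PBS called 0.0381% of genes and no member, and DESeq2 called 0 members. At an unadjusted p under 0.05 there were 502 of 15745 genes and 1 member. That member, Plod2, was at 30.8, 29.1, 27.5 and 26.2 CPM in AAV_TAC against 36.8, 35.3 and 31.3 CPM in PBS_TAC, a value of −0.28 (SE 0.12, edgeR adjusted p 1). Plod2 and Loxl4 were lower without overlap, as 4.27% of genes were. The interaction of vector and TAC called 0.00635% of genes and no member, and DESeq2 called 0 members. At an unadjusted p under 0.05 there were 2 members and 1094 of 15745 genes. The 2 members were Lox (1.19, SE 0.52, edgeR adjusted p 0.688) and Loxl1 (0.54, SE 0.25, edgeR adjusted p 0.688).

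The make-up of each family per kilobase gives the share of each isoform in the family's level. The summed lysyl oxidase level was 46.3 ± 7.18 CPM per kb in KO_TAC and 19.7 ± 0.925 to 22.3 ± 3.16 in the other floxed groups (SD, n = 4). Lox supplied 11.6% ± 4.44 of it in KO_TAC, against 5.27% ± 1.55 in KO_sham and 4.31% ± 1.29 in FF_TAC, while Loxl1 supplied 61.4% ± 4.54 in KO_TAC and 67.8% ± 2.15 to 74.1% ± 1.97 in the others. In level, Loxl1 went from 13.8 CPM per kb in KO_sham to 28.2 in KO_TAC, a larger rise than that of Lox, from 1.05 to 5.57. The shares were not tested. In the prolyl hydroxylase family, P4ha1 supplied 75.6% ± 1.08 in KO_TAC and 57.5% ± 3.23 to 60.7% ± 2.98 in the other floxed groups. P4ha2, the alternative alpha subunit and no member here, was not called (0.23 against KO_sham, SE 0.12, edgeR adjusted p 0.143, and −0.14 against FF_TAC, SE 0.11, edgeR adjusted p 0.436). Plod3 supplied 35.9% ± 3.04 of the lysyl hydroxylase level in KO_TAC and 28.5% ± 0.979 to 29.7% ± 2.25 in the other floxed groups.

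**Figure D4:**
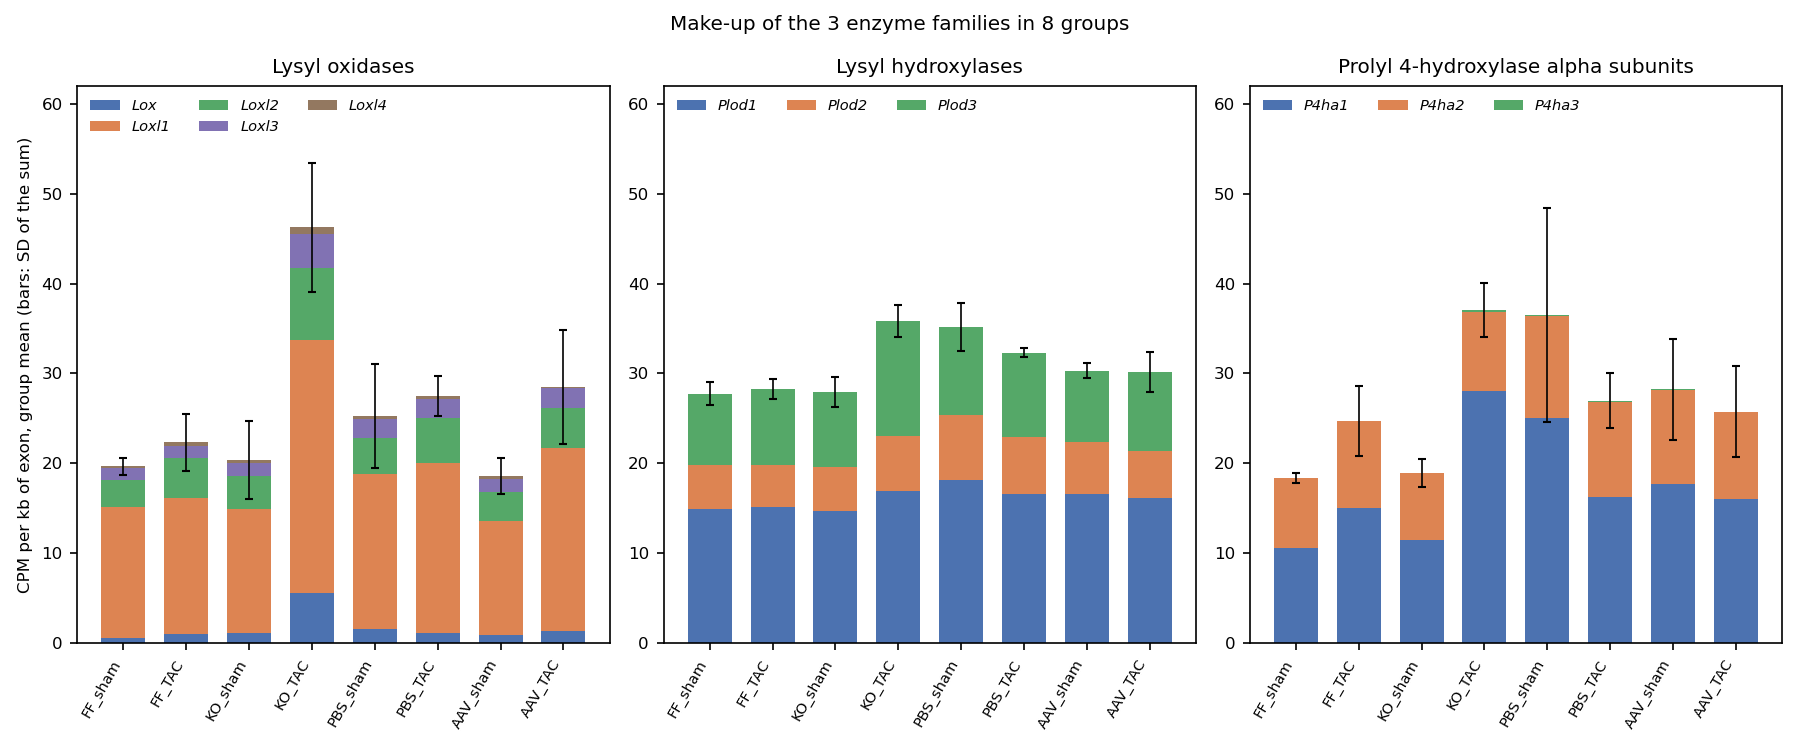
Mean level per kilobase of exon, in CPM per kb, of each member of the 3 families in the 8 groups, stacked from 0, with the SD of the family's sum. P4ha2 is drawn to complete its family. In KO_TAC the lysyl oxidase sum is 46.3 CPM per kb and P4ha1 is 75.6% of its family.

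Enzyme counts were also set against the counts of their main substrate, fibrillar collagen (Col1a1, Col1a2 and Col3a1 summed). Those were at 831 to 1340 CPM in KO_TAC, 388 to 1110 CPM in KO_sham and 439 to 590 CPM in FF_TAC. Per 1000 collagen counts, Lox was at 12.4 to 44.3 in KO_TAC, with a median of 26.6, against 5.02 to 12.4 in KO_sham and 5.71 to 12.2 in FF_TAC. Loxl1, at 68.7 to 125 in KO_TAC, spanned the FF_TAC range of 83.0 to 104 and overlapped that of KO_sham, 48.8 to 79.0. P4ha1, at 86.1 to 155, spanned the FF_TAC range of 94.5 to 136 and overlapped that of KO_sham, 36.4 to 136. This overlap with KO_sham came through KO_sham 2 alone, a haemoglobin-low library with the lowest collagen sum of its group (388 CPM). KO_sham 2 also set the upper end of the KO_sham range for Lox, Loxl1 and Plod1. Plod1 was at 96.4 to 130 in KO_TAC, below the FF_TAC range of 174 to 216 but inside the KO_sham range of 85.9 to 255. These ratios are a description with no test.

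**Figure D5:**
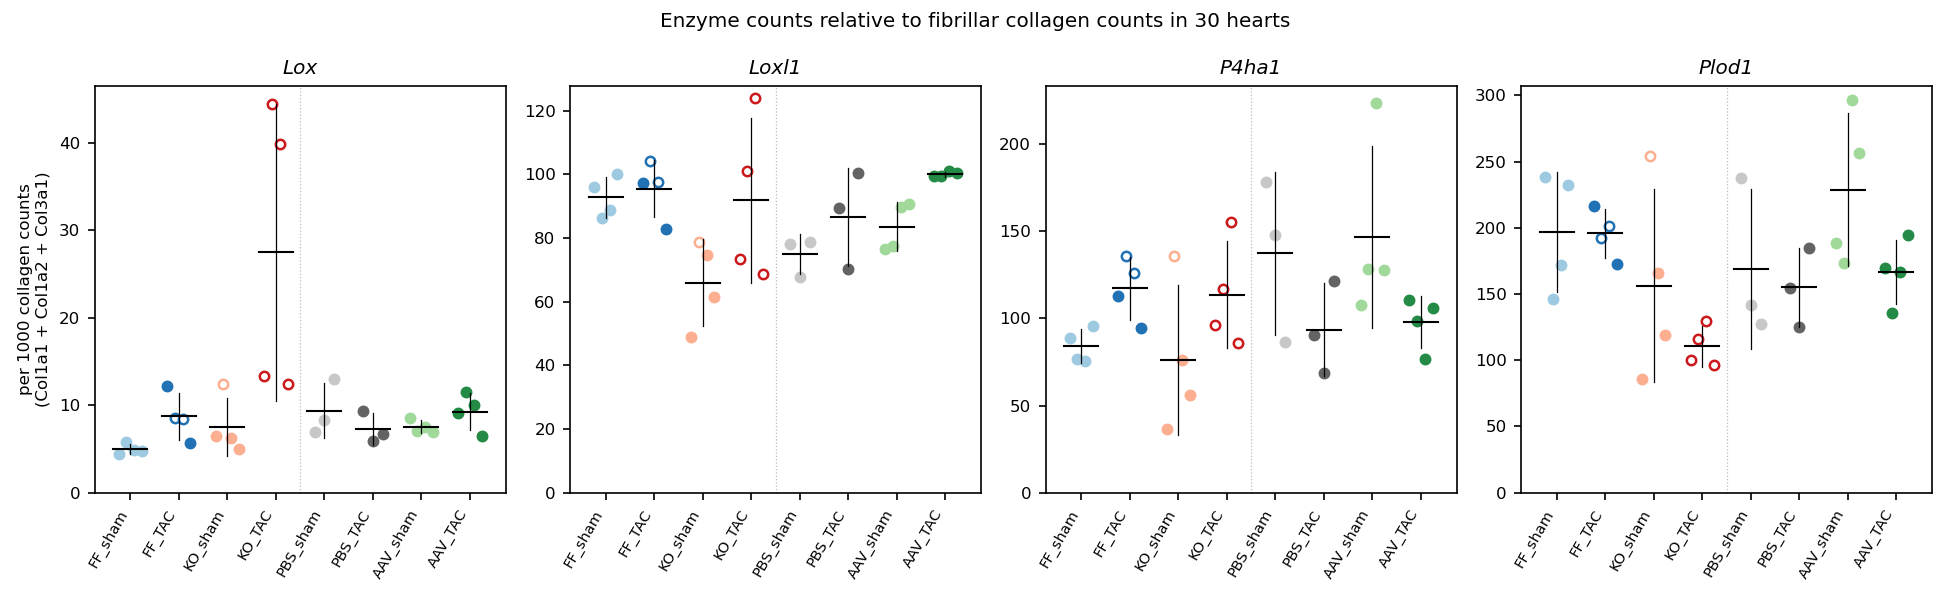
Counts of Lox, Loxl1, P4ha1 and Plod1 per 1000 counts of Col1a1, Col1a2 and Col3a1 together in each of the 30 hearts, on linear axes from 0. Open points are the 7 haemoglobin-low libraries, lines are group means and SDs. Lox in KO_TAC runs from 12.4 to 44.3, while Loxl1 in KO_TAC spans the FF_TAC values.

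Other genes of collagen processing moved in the same 2 comparisons. Of 24 partners of these enzymes (other hydroxylases, chaperones, procollagen proteinases and their helpers), 9 rose and 1 fell against KO_sham, with a median log2 fold change of 0.15. Another 9 calls, all rises, came against FF_TAC, with a median of 0.33. Of all genes tested, 14.3% were called higher against KO_sham and 7.53% against FF_TAC. The rises against KO_sham were led by Tgm2, a transglutaminase that forms another kind of crosslink (1.22, SE 0.17, edgeR adjusted p 0.000764), and Pcolce2, an enhancer of procollagen C-proteinase (1.10, SE 0.20, edgeR adjusted p 0.00273). The gene that fell was Adamts3, a procollagen N-proteinase (−1.05, SE 0.33, edgeR adjusted p 0.0294). Against FF_TAC, Pcolce2 (1.14), Adamts2 (1.11), another N-proteinase, and Pcolce (1.09) led. With the haemoglobin term 2 partners were called against KO_sham, among 273 genes in all. Among haemoglobin-low libraries alone 0 were called against FF_TAC, where 0 of all 15311 genes were.

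Of 15 substrates and matrix proteins, 9 rose in each of these comparisons and 0 fell, with medians of 0.75 and 0.98. Of all genes tested, 14.3% and 7.53% were called higher there. Postn, a matrix protein of activated fibroblasts, led in both (2.87, SE 0.45, edgeR adjusted p 0.00143 against KO_sham, and 2.32, SE 0.44, edgeR adjusted p 0.00375 against FF_TAC). Col5a2, a collagen that nucleates fibrils, followed against KO_sham (1.15), and Eln, elastin, followed against FF_TAC (1.49). With the haemoglobin term 1 substrate was called against KO_sham, among 273 genes in all. Among haemoglobin-low libraries alone 0 were called against FF_TAC, where 0 of all 15311 genes were. In the other 8 comparisons neither list had a gene called by edgeR.

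Summed markers of fibroblasts were higher in KO_TAC as well. The summed level of 6 fibroblast markers was 1270 to 1480 CPM in KO_TAC, 727 to 1080 CPM in KO_sham and 774 to 918 CPM in FF_TAC. Dcn, 1 of the 6, had a mean of 619 CPM over the 30 libraries and so weighs heavily in this sum. Of the 6, 1 was called higher against KO_sham (median log2 fold change 0.14) and 2 against FF_TAC (median 0.41). Of all genes tested, 14.3% and 7.53% were called higher in these comparisons. For 6 markers of activated fibroblasts the sums were 466 to 1180, 192 to 264 and 178 to 234 CPM, with 3 and 4 called higher and medians of 1.56 and 1.86. In the AAV9 cohort PBS_sham 3, at 1160 CPM for these 6, lay inside the KO_TAC range. Postn, 1 of the 6, was at 134 CPM in PBS_sham 3 and at 141 to 640 CPM in KO_TAC. Summed smooth muscle markers reached 1090 CPM in the highest PBS_sham library, with a group median of 318 CPM, and were at 121 to 346 CPM in KO_TAC. None of these markers was at 0 in all hearts. The part of fibroblasts in the enzymes' rise was not tested. Cardiomyocyte markers summed to 43300 to 59600 CPM in KO_TAC and 50300 to 52300 CPM in KO_sham, and 3 of 6 were called lower. Endothelial markers summed to 498 to 628 CPM in KO_TAC, 591 to 807 CPM in KO_sham and 751 to 849 CPM in FF_TAC, with 3 of 5 called lower in each comparison. Of 5 macrophage markers, 0 were called against KO_sham and 3 were called higher against FF_TAC. Of all 15596 genes, 1798 were called lower against KO_sham and 1060 against FF_TAC.

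Across the 30 hearts, after each cohort's mean was removed, the gene whose log2 CPM was most alike to Lox was Timp1, an inhibitor of matrix metalloproteinases (Pearson r 0.941 across libraries, among 10537 genes). Loxl1 was most like Meox1 (0.92), a homeobox gene that is also among the activated fibroblast markers, and Loxl2 most like Dbn1 (0.914), which binds actin. Loxl3 was most like Col16a1 (0.893), Plod3 most like Nbl1 (0.928), a BMP antagonist, and P4ha1 most like Ptges3 (0.915), a cochaperone of Hsp90. The lower values were those of Loxl4 with Ugdh (0.843), Plod2 with Gxylt2 (0.824), P4ha3 with Pqlc3 (0.859) and Plod1 with Stip1 (0.774). Among the members themselves, Lox and Loxl3 were closest (0.906), followed by Lox and Plod3 (0.868), and Plod1 and Plod2 were farthest apart (0.085). The KO_TAC hearts are shared by all of these values, which are descriptions with no test.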

How the data were processed

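The authors deposited whole-number counts per gene and library, made per the submitters' processing notes with HISAT2 2.1.0 and featureCounts of Subread 1.5.1 on GRCm38. Per the labels' protocols, the libraries were strand-specific and poly(A)-selected. The strand setting and annotation release of the counting are not given in the sources used here. Symbols, positions and exon lengths came from GENCODE mouse release M21, which named 55227 of 55487 gene identifiers. Counts without a symbol were 0.0034% of the total. Pairs of same-group libraries (42 in all) differed by a chi-square of 6.29 to 234 per degree of freedom, so none was treated as a duplicate. The labels name a heart for each library but no animal identifiers, so p-values measure the spread between these libraries. Counts of 0 and their limit of 3 cover counting error only, since PCR copies are not independent molecules.

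The cohorts were fitted separately, each with 1 coefficient per group, by edgeR 4.0.16 in R 4.3.3 (TMM, filterByExpr, quasi-likelihood F test, Benjamini-Hochberg adjustment over all genes tested). The filter left 15596 genes (floxed) and 15745 (AAV9). Genes were called at an adjusted p under 0.05. CPM used TMM-scaled totals. The fit was tested on simulated counts. Alternatives were DESeq2 1.42.0, RLE size factors, no filter, a replicate block, a haemoglobin term or subset, and leaving out each library. A log2 Myl7 covariate for atrial tissue was added after seeing the data.

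All 10 members are reported. The gene lists were named by rule: the called genes of each were counted, the 3 with the largest changes could be named, and Cpt1a was given as a check of the labels, P4ha2 to complete its family. For each member the most alike gene had to reach a mean of 5 CPM. The members and lists were chosen with earlier results of these data known. The microRNA work in the series text was not analysed here.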

Additional observations from a re-analysis of the deposited data

Results flagged for a closer look

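Of 60 checks of members in groups of 4 hearts, 7 found a heart far from the other 3 by Dixon's criterion, which chance gives in about 1 of 20 groups. Loxl4 was high in FF_TAC 3 (3.19 CPM), KO_sham 2 (2.68 CPM) and AAV_sham 1 (2.42 CPM). The first 2 of these are haemoglobin-low libraries. Plod1 was high in KO_TAC 4 (129 CPM) and AAV_sham 3 (124 CPM), Plod2 in FF_TAC 1 (27.9 CPM) and Plod3 in AAV_sham 1 (40.0 CPM).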

How the results depend on the processing

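Of 688 refits of 44 fold changes, 655 kept their direction and their side of the threshold, 6 lost the call, 27 gained it and 0 reversed. The 44 do not cover every member in every comparison, and values far from the threshold could change sign. Loxl4 in the interaction of knockout and TAC went from −0.23 to 0.72 with the haemoglobin-low libraries of FF_TAC and KO_sham left out. Under DESeq2 the count of called members was 1 in FF_TAC against FF_sham, among 166 genes, and 8 in KO_TAC against FF_TAC, among 3039 genes. P4ha3, which did not pass edgeR's filter, was 1 of those 8 and is no added support. The DESeq2 count was 5 in the interaction of knockout and TAC, among 364 genes, and 1 in AAV_TAC against AAV_sham, among 96 genes. Among haemoglobin-low libraries alone the count of called members was 0 in KO_TAC against FF_TAC. With the haemoglobin-low libraries of FF_TAC and KO_sham left out, it was 3 in the interaction of knockout and TAC (Loxl1, Plod3 and P4ha1). In that fit 825 of 16319 genes were called, and the haemoglobin split and KO_TAC cannot be told apart. Same-numbered libraries correlated between −0.49 and 0.435, so the numbers do not pair the hearts. The replicate block called 1 member in the interaction, P4ha1 (0.81, adjusted p 0.0498), among 19 genes, and changed no other member count. Leaving out 1 library gave 6 to 7 called members in KO_TAC against KO_sham, 5 to 7 in KO_TAC against FF_TAC, 0 to 4 in the interaction and 0 to 5 in AAV_sham against PBS_sham. In all other comparisons it gave 0. Some of these fits tested P4ha3, which their smaller groups let through the filter. Of the 8 fits against FF_TAC, 5 tested and called it, and of the 8 against KO_sham, 5 tested it and 1 called it. P4ha3 passed the filter through KO_TAC, the group where it was high, so these calls are no added support. The cause of the other differences was not tested. Depth limited P4ha3 and Loxl4 most.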
